A study of Mus musculus with 6 samples.

Results

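Integrins and laminins form a receptor and ligand system between a cell and its basement membrane. The genes described here are integrin alpha and beta subunits and laminin alpha, beta and gamma subunits, taken from the count matrices by symbol. The symbols are those that begin with Itga, those made of Itgb and a number, and those made of Lama, Lamb or Lamc and a digit. This gave 37 of 33696 genes, of which 36 are reported, made up of 18 integrin alpha, 8 integrin beta, 5 laminin alpha, 3 laminin beta and 2 laminin gamma subunits. They were measured by single-nucleus RNA sequencing of the left ventricle of male mice, labelled as 12 weeks of age, with 6 libraries in 3 groups of 2. The WT-CD group held wild-type littermates fed a control diet. The R403Q-CD group ate the same diet and had the R403Q mutation in the gene of the cardiac myosin heavy chain (labelled Myh6+/R404Q (R403Q), a mouse model of hypertrophic cardiomyopathy). R403Q-EMPA mice carried the same mutation and received empagliflozin, an inhibitor of the sodium-glucose cotransporter SGLT2, at 0.15 mg per g of that diet, or about 15 mg per kg of body weight. All mice entered the study at 9 to 10 weeks of age. The mutation is carried by every cell of these mice, while Myh6 is the motor protein of cardiomyocytes, and no group of wild-type mice on empagliflozin was analysed here, so R403Q-EMPA against WT-CD joins mutation and drug.

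An integrin is a pair of 1 alpha and 1 beta chain that spans the membrane, binds matrix or another cell outside and ties to the actin cytoskeleton inside. Pairs of the Itgb1 chain with Itga3, Itga6 or Itga7 bind laminin, those with Itga1, Itga2, Itga10 or Itga11 bind collagen, and those with Itga5, Itga8 or Itgav bind the RGD motif of fibronectin and its relatives. A laminin is a cross-shaped trimer of an alpha, a beta and a gamma chain that polymerises into the sheet around cardiomyocytes, mural cells and vessels. Loss of Lama2 is known to cause muscular dystrophy, and Itga7 is the main laminin-binding alpha chain of striated muscle.

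The 6 libraries held 31787308 to 45397128 unique molecular identifiers (UMIs, 1 per captured RNA molecule) in 69249 barcodes. After filters, 46005 nuclei were kept, with a median of 2663 to 4065 UMIs per nucleus in each library, and 25 clusters were built. Of these, 24 met the markers of 11 classes, each called "-like" because the classes were rebuilt here. In all, 10 classes had enough nuclei in every library to be compared, from 232 smooth muscle-like to 14146 fibroblast-like nuclei, and the 61 Schwann-like nuclei were not compared. The labels also name epicardial fat, and no cluster met the adipocyte markers. Expression was counted as UMIs per 1000000 UMIs of a class in a library (CPM, not corrected for gene length), so a level is compared across classes for 1 gene and never between genes. Libraries shared 9 to 30 kept barcodes per pair. Myh6 in cardiomyocyte-like nuclei was at 7629 to 9336 CPM in the 6 libraries, and these counts do not separate the mutated allele from the normal 1. Transcripts typical of other classes were found in every class. The summed cardiomyocyte markers in the other classes stood at 2.17% to 8.94% of their level in cardiomyocyte-like nuclei. In 6 of the 9 compared classes other than fibroblast-like nuclei, the summed fibroblast markers were highest in the library WT-CD replicate 1, for example 813 CPM in endothelial-like nuclei against 281 to 318 CPM in the 5 others.

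The subunits were spread unevenly over the cell classes. A subunit was said to mark a class where its mean over the 6 libraries was at least 2 times that of the next class, its lowest library there lay above the highest library of every other class, and the class held at least 50 of its UMIs. The rule, and every order of classes given here, covers the 10 compared classes and leaves out the Schwann-like nuclei. By this rule 16 of the 35 reported subunits with enough UMIs marked a class (45.7%), beside 2532 of 17355 genes, or 14.6%. The counts describe these 6 libraries and carry no test, since the classes were built from the same nuclei, though only 9 of the subunits were among the 2000 genes used for clustering. Lymphoid-like nuclei had 4 marking subunits, fibroblast-like and smooth muscle-like nuclei 3 each, lymphatic endothelial-like nuclei 2, and cardiomyocyte-, endothelial-, endocardial- and myeloid-like nuclei 1 each. Pericyte-like and epicardial-like nuclei had 0. Over all genes, the share that marked the class was 1.62% for lymphoid-like, 1.16% for fibroblast-like, 0.519% for smooth muscle-like, 0.939% for lymphatic endothelial-like, 3.9% for cardiomyocyte-like, 0.985% for endothelial-like, 0.57% for endocardial-like and 2.79% for myeloid-like nuclei. With the Schwann-like nuclei counted as a class, an alternative added after the values were seen, 12 of the 16 still passed, and Lamb1, Lama4, Itgb4 and Itga10 did not. Lama1, the alpha chain of the embryonic basement membrane, had 45 UMIs in all classes together and was too sparse to place.

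**Figure D1:**
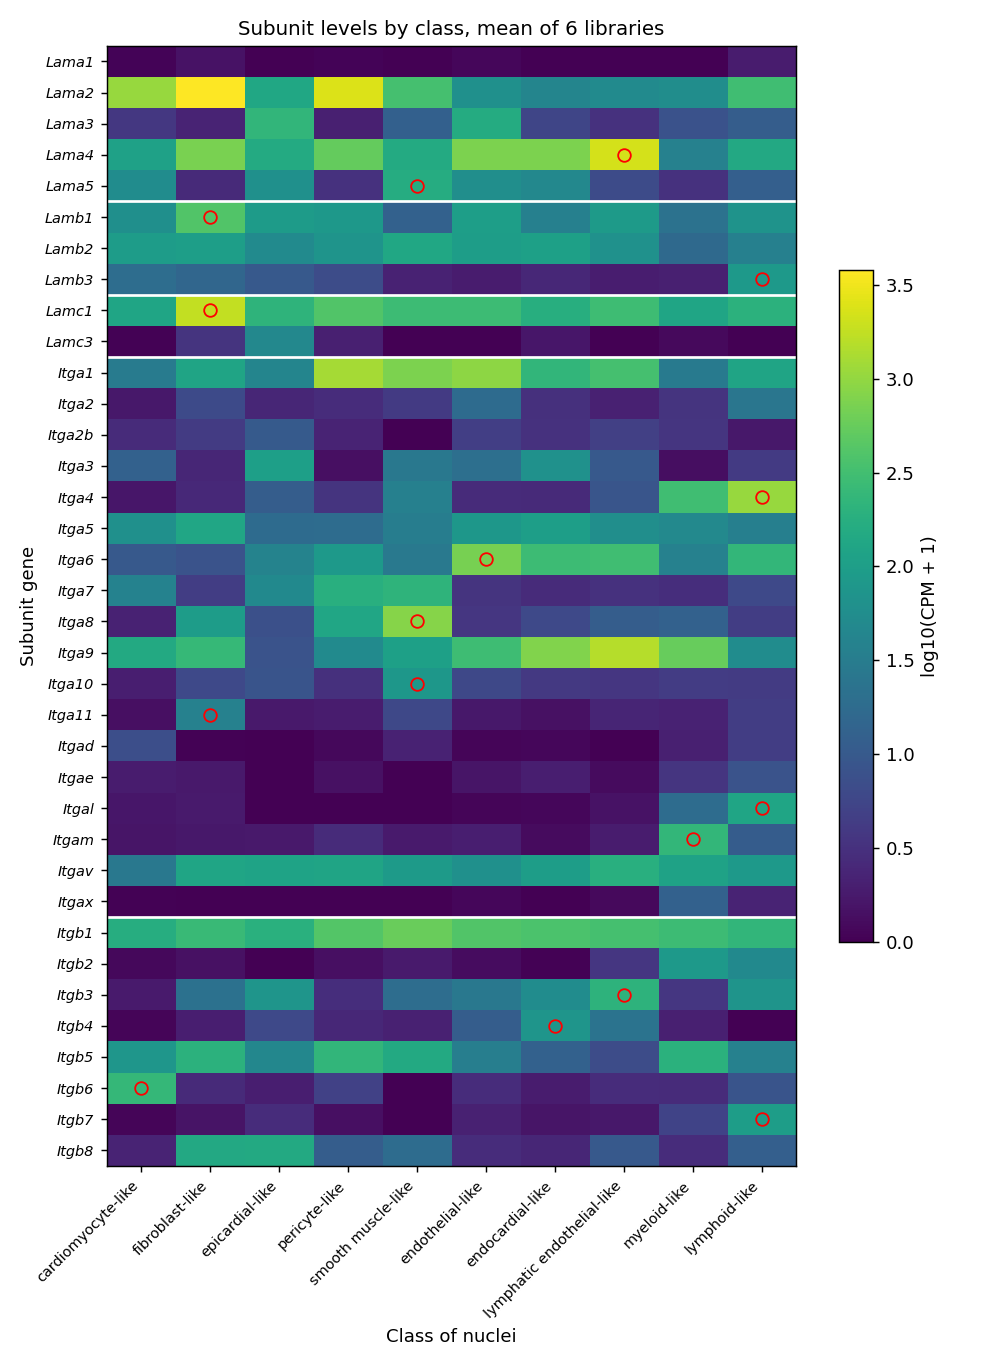
Mean level over 6 libraries of each of the 36 subunits (rows, grouped as laminin alpha, beta and gamma, then integrin alpha and beta) in 10 classes of nuclei (columns), as log10(CPM + 1) by colour. Red circles stand on the 16 subunits that marked a class, among them Itgb6 in cardiomyocyte-like and Lamc1 in fibroblast-like nuclei.

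Among the laminins, Lamc1, Lamb1 and Lama2 were highest in fibroblast-like nuclei. Lamc1, the gamma chain of most laminins, was at 1776 ± 240.2 CPM (SD, n = 6 libraries) there, with a range of 1461 to 2132 CPM, against 405.8 ± 42.5 CPM in pericyte-like nuclei, the next compared class, with the Schwann-like nuclei at 494.0 CPM. Lamb1, a beta chain that pairs with it, was at 400.7 ± 73.2 CPM against 99.8 ± 55.5 CPM in endothelial-like nuclei. Lama2, the alpha chain of muscle laminin, was also highest in fibroblast-like nuclei, at 3799 ± 267 CPM, but pericyte-like nuclei followed at 2494 ± 221 CPM, so it did not mark the class. Cardiomyocyte-like nuclei came next among the compared classes for Lama2, at 1067 ± 173 CPM, or 28.1% of the fibroblast-like level, where the summed fibroblast markers stood at 1.36%.

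The vascular alpha chain Lama4 was at 2260 ± 117 CPM in lymphatic endothelial-like nuclei, 3.06 times the level in endothelial-like nuclei (737.4 ± 61.8 CPM), while the Schwann-like nuclei were at 1168 ± 158 CPM. Endocardial-like nuclei (735.4 ± 87.3 CPM) and fibroblast-like nuclei (715.4 ± 92.3 CPM) followed, and these 3 levels did not differ beyond the spread of the libraries. Lama5, another alpha chain of mature vessel walls, was highest in smooth muscle-like nuclei at 163.6 ± 45.3 CPM, on 136 UMIs. Lama3, an epithelial alpha chain, was at 224.2 ± 78.1 CPM in epicardial-like and 156.3 ± 33.5 CPM in endothelial-like nuclei, and these ranges overlapped. Lamb2 fell off slowly across classes, from 134.0 ± 30.8 CPM in smooth muscle-like to 106.1 ± 15.2 CPM in endocardial-like and 98.99 ± 16.0 CPM in fibroblast-like nuclei.

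Of the sparser laminin chains, Lamb3, a beta chain of epithelial laminin, marked lymphoid-like nuclei at 82.5 ± 26.3 CPM, on 97 UMIs, with cardiomyocyte-like nuclei next at 18.3 ± 4.09 CPM. Lamc3 was at 45.2 ± 36.1 CPM in epicardial-like nuclei, but from 0.0 to 81.4 CPM across the libraries, and did not pass.

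Of the laminin-binding integrins, Itga6 marked endothelial-like nuclei at 692.1 ± 36.1 CPM, 2.27 times the 304.1 ± 27.8 CPM of lymphatic endothelial-like nuclei. Its partner Itgb4, known from the hemidesmosomes of skin, was highest of the compared classes in endocardial-like nuclei, at 72.6 ± 29.0 CPM against 22.2 ± 9.11 CPM in lymphatic endothelial-like nuclei, but was at 120.5 CPM in the Schwann-like nuclei. Itga7 was at 214.2 ± 52.1 CPM in smooth muscle-like and 179.5 ± 19.5 CPM in pericyte-like nuclei, with overlapping libraries, and at 37.8 ± 6.55 CPM in cardiomyocyte-like nuclei. Itga3 was led by epicardial-like nuclei at 104.2 ± 29.4 CPM, followed by endocardial-like nuclei at 62.7 ± 7.22 CPM.

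The 4 collagen-binding alpha chains were each highest in a different one of the compared classes. Itga11, a receptor of fibrillar collagen, marked fibroblast-like nuclei at 36.7 ± 6.30 CPM, 7.45 times the next class. Itga10 marked smooth muscle-like nuclei at 77.1 ± 33.0 CPM, but on 63 UMIs, and it lost that place when R403Q-EMPA replicate 1 was left out, which took it below 50 UMIs. Itga1, a receptor of basement membrane collagen, was at 1260 ± 142 CPM in pericyte-like and 928.9 ± 83.3 CPM in endothelial-like nuclei, then at 744.0 ± 84.8 CPM in smooth muscle-like nuclei. Itga2, known from platelets and epithelia, was sparse, with its highest mean of 24.8 ± 15.7 CPM in lymphoid-like nuclei.

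Of the RGD-binding integrins, the only 1 to mark cardiomyocyte-like nuclei was Itgb6, a beta chain that with Itgav binds and activates latent TGF-beta. It was at 244.7 ± 85.6 CPM in cardiomyocyte-like nuclei, on 15081 UMIs, and 32.75 times over lymphoid-like nuclei, the next class. Itga8 marked smooth muscle-like nuclei at 848.3 ± 295 CPM, ahead of pericyte-like nuclei at 128.4 ± 18.8 CPM. Itgb3, the beta chain of the vitronectin receptor and of platelets, marked lymphatic endothelial-like nuclei at 204.1 ± 39.2 CPM. Itga9, which is no RGD receptor but binds tenascin and lymphangiogenic factors, was also highest there at 1501 ± 199 CPM, with endocardial-like nuclei at 800.8 ± 82.5 CPM, which is under the 2-fold limit. Itgb8, another activator of latent TGF-beta, was level between epicardial-like (148.2 ± 39.9 CPM) and fibroblast-like nuclei (145.5 ± 32.5 CPM).

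The broadly used chains marked no class. Itgb1, the common partner of most alpha chains, ranged down from 578.8 ± 96.8 CPM in smooth muscle-like nuclei through 418.7 ± 22.7 CPM in pericyte-like and 407.2 ± 64.2 CPM in endothelial-like nuclei. Itgav was at 183.2 ± 15.2 CPM in lymphatic endothelial-like and 125.8 ± 9.37 CPM in fibroblast-like nuclei. Itga5, the fibronectin receptor's alpha chain, was at 130.5 ± 26.1 CPM in fibroblast-like and 99.0 ± 15.7 CPM in endocardial-like nuclei, and Itgb5 at 226.7 ± 18.8 CPM in pericyte-like and 200.2 ± 18.0 CPM in fibroblast-like nuclei.

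Most leukocyte integrins were highest in the immune classes. Itgam, the alpha chain of complement receptor Mac-1, marked myeloid-like nuclei at 236.1 ± 17.9 CPM, 23.6 times the next class. Itga4 (1063 ± 131 CPM), Itgal (127.6 ± 19.3 CPM) and Itgb7 (96.6 ± 33.3 CPM), the chains that guide lymphocytes into tissue, marked lymphoid-like nuclei. Itgb2, the shared beta chain of leukocytes, was at 82.6 ± 17.1 CPM in myeloid-like and 49.4 ± 21.8 CPM in lymphoid-like nuclei and separated neither from the other. Itgax (11.9 ± 7.41 CPM in myeloid-like nuclei), Itgae (7.13 ± 8.74 CPM in lymphoid-like nuclei), Itgad (6.33 ± 0.989 CPM in cardiomyocyte-like nuclei) and the platelet chain Itga2b (9.30 ± 14.7 CPM in epicardial-like nuclei) were at low levels and marked no class.

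Among endothelial-like nuclei, 3 subunits also separated 1 cluster from the others, a pattern looked for after the values were seen. Lama3 was at 590.8 ± 89.8 CPM in the cluster led by Gja5, an arterial connexin, and at 335.6 CPM in the next. Itga9 was at 616.5 ± 68.4 CPM in the cluster led by Gm40663 and Col13a1 against 345.9 CPM. Lama2 was at 269.8 ± 140 CPM in the cluster led by the cycling gene Mki67 against 62.7 CPM. In each of these cases the libraries did not overlap. The Mki67 cluster met only 3 of the 7 endothelial markers and held as few as 13 nuclei in a library. Lama2 was at 3799 CPM in fibroblast-like and 2494 CPM in pericyte-like nuclei. The part of other classes in the Mki67 cluster was not tested. In fibroblast- and cardiomyocyte-like nuclei, no subunit with at least 200 UMIs in the class that was at least 1.5 times higher in 1 cluster than in the next had libraries that did not overlap.

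The first comparison between groups, R403Q-CD against WT-CD, asks what the mutation alone does on the control diet. Sums of UMIs per library and class were tested with edgeR's quasi-likelihood test, and p-values were adjusted by Benjamini-Hochberg over all genes of the class. A subunit entered a class's test only where its counts passed edgeR's filter, which left 35 of the 36 subunits in at least 1 class and 191 pairs of subunit and class. None of the 191 passed an adjusted p of 0.05, beside 0.017% of all gene and class pairs, and 17 had an unadjusted p under 0.05 (8.9%, beside 4.32% of all pairs). DESeq2 also called 0, beside 0.119% of all pairs. Only 2 libraries per group stand behind each value, and the labels do not say whether each came from a separate animal. The p-values thus measure spread between libraries, estimated from all 3 groups together. The 2 libraries of a group differed more in WT-CD and R403Q-EMPA (chi-square per degree of freedom 50.53 and 38.07) than in R403Q-CD (7.826).

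In cardiomyocyte-like nuclei, where 0.0905% of genes were called, the smallest p belonged to Lama5, at 51.3 and 41.4 CPM in WT-CD against 71.2 and 59.6 CPM in R403Q-CD (log2 fold change 0.49, SE 0.158, adjusted p 0.479). Itga7 stood at 42.9 and 45.9 CPM in WT-CD against 33.0 and 30.9 CPM in R403Q-CD (log2 fold change -0.49, adjusted p 0.553). In fibroblast-, endothelial- and endocardial-like nuclei 0.0% of genes were called in this comparison. The smallest p there belonged to Itga3 in fibroblast-like nuclei (2.42 and 1.98 CPM in WT-CD, 0.646 and 0.746 CPM in R403Q-CD), to Itgb4 in endothelial-like nuclei (12.3 and 9.55 CPM against 4.70 and 5.97 CPM) and to Itgb3 in endocardial-like nuclei (13.8 and 36.4 CPM against 39.1 and 53.6 CPM), each with an adjusted p of at least 0.9995. In the 6 other classes the smallest p belonged to Itgb3 (lymphatic endothelial-like), Lama2 (pericyte-like), Itga8 (smooth muscle-like), Lamc1 (myeloid-like), Itga6 (lymphoid-like) and Itga3 (epicardial-like), with adjusted p from 0.493 to 0.9993. The p of 0.493 was that of Itga6 in lymphoid-like nuclei, at 157.6 and 139.7 CPM in WT-CD against 376.8 and 343.6 CPM in R403Q-CD.

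Setting R403Q-EMPA against WT-CD places treated mutant hearts beside the untreated wild type. Here 5 of the 191 pairs, from 4 subunits, passed the threshold (2.62%, beside 1.41% of all gene and class pairs), and 47 had an unadjusted p under 0.05 (24.6%, beside 12.7% of all pairs). DESeq2 called 7 (3.66%, beside 1.79% of all pairs). Of the 5, 3 were in cardiomyocyte-like nuclei, where 3 of 25 subunits were called beside 3.99% of genes. Itga5 rose there, and Itgb6 and Lamb3 fell. The other 2 were Itgb3 in endothelial-like and endocardial-like nuclei, where it rose.

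**Figure D2:**
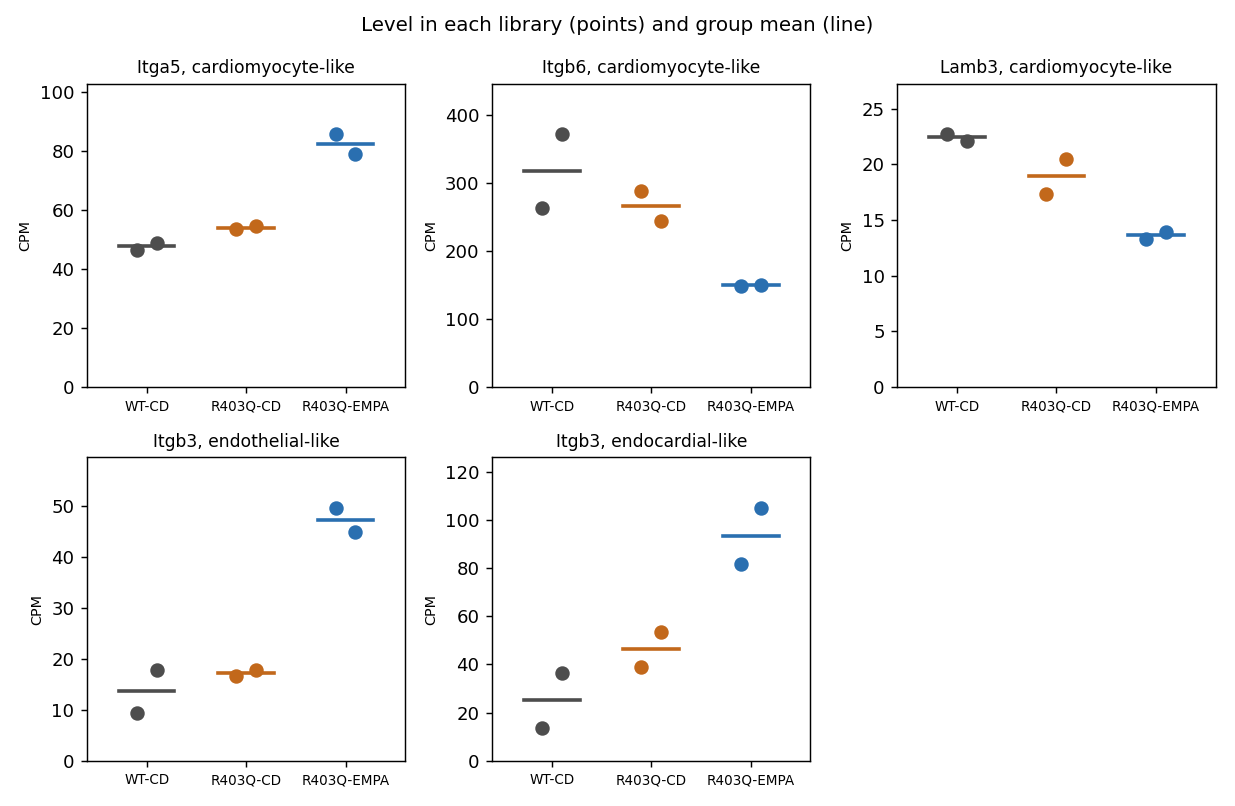
Level in CPM of the 4 subunits called in R403Q-EMPA against WT-CD, in the class where each was called. Points are single libraries and lines are group means, and in all 5 panels the R403Q-EMPA libraries lie apart from the WT-CD libraries, with Itgb6 at 149 and 150 CPM against 264 and 372 CPM.

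Itga5 in cardiomyocyte-like nuclei was at 46.4 and 48.9 CPM in the WT-CD libraries, 53.4 and 54.6 CPM with R403Q-CD and 85.6 and 78.9 CPM with R403Q-EMPA. It was 1.64 times higher in R403Q-EMPA than in WT-CD (log2 fold change 0.71, SE 0.148, adjusted p 0.0302). Itgb1, the beta chain that Itga5 pairs with, was at 177.2 and 162.8 CPM in WT-CD and 190.9 and 162.5 CPM in R403Q-EMPA, and these libraries overlapped.

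Itgb6 was at 264.1 and 372.0 CPM in the WT-CD libraries, 288.5 and 244.4 CPM with R403Q-CD and 148.7 and 150.4 CPM with R403Q-EMPA. R403Q-EMPA was 2.26 times lower than WT-CD (log2 fold change -1.18, SE 0.227, adjusted p 0.0224), while WT-CD and R403Q-CD overlapped. Lamb3 was at 22.7 and 22.1 CPM in the WT-CD libraries, 17.4 and 20.5 CPM with R403Q-CD and 13.3 and 13.9 CPM with R403Q-EMPA (log2 fold change -0.79, SE 0.170, adjusted p 0.0360). Of the other cardiomyocyte laminins and receptors, Lama2 (1127 and 1341 CPM in WT-CD, 1042 and 813 CPM in R403Q-EMPA) and Itga7 (42.9 and 45.9 CPM, then 42.0 and 31.9 CPM) did not pass. Itgae missed narrowly at an adjusted p of 0.0588, on 3 and 1 UMIs in WT-CD and 17 and 27 in R403Q-EMPA.

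The clusters that made up the cardiomyocyte-like nuclei differed in share between the groups. The cluster led by Gm40604, with Mylk4 among its leading genes, held 92.7% and 91.4% of the class in the WT-CD libraries (replicate 1, then 2), 81.6% and 65.3% with R403Q-CD and 34.7% and 62.4% with R403Q-EMPA. A cluster led by Gm56984 and Ryr3 held 3.56% and 2.38% in WT-CD, 7.62% and 15.8% with R403Q-CD and 45.45% and 29.65% in R403Q-EMPA, and its part in the class-wide changes was not tested. Within the Mylk4 cluster, Itgb6 was at 202.0 and 167.6 CPM in R403Q-EMPA against 263.6 to 370.0 CPM in WT-CD, and its libraries were apart in the same direction in the other 2 cardiomyocyte-like clusters. Itga5 in the Mylk4 cluster was at 58.8 and 68.6 CPM against 45.3 to 47.6 CPM, but in the Ryr3 cluster its R403Q-EMPA libraries (99.7 and 94.7 CPM) lay within the WT-CD range of 64.85 to 106.9 CPM. In the third cluster, led by Ttc23l, Itga5 was at 122.8 and 118.7 CPM in R403Q-EMPA against 70.6 and 18.2 CPM in WT-CD, on 7 and 2 UMIs in WT-CD, and Lamb3 overlapped. Lamb3 was lower in R403Q-EMPA in the Mylk4 cluster (20.6 and 15.45 CPM against 22.6 to 23.1 CPM) but higher in the Ryr3 cluster (8.48 and 10.2 CPM against 5.90 to 7.92 CPM), where each WT-CD library held 2 UMIs of it, from 40 and 17 nuclei. These values by cluster were chosen after the class-wide results were seen and have no test.

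Itgb3 rose in the nuclei of the vessel and chamber lining. In endothelial-like nuclei, where 1 of 25 subunits was called beside 0.804% of genes, it was at 9.42 and 17.9 CPM in the WT-CD libraries, 16.7 and 17.8 CPM with R403Q-CD and 49.7 and 45.03 CPM with R403Q-EMPA. R403Q-EMPA was 3.33 times WT-CD (log2 fold change 1.73, SE 0.270, adjusted p 0.0317). In endocardial-like nuclei, where 1 of 18 subunits was called beside 2.28% of genes, it was at 13.8 and 36.4 CPM, then 39.1 and 53.6 CPM, then 81.6 and 104.9 CPM, so that the 3 groups did not overlap. The increase over WT-CD was 3.53-fold (log2 fold change 1.82, SE 0.342, adjusted p 0.0205). The 7 endocardial markers, all detected in those nuclei, summed to 8409 and 11390 CPM in R403Q-EMPA and to 14470 to 16340 CPM in the 4 other libraries, and their part in the values of this class was not tested. In lymphatic endothelial-like nuclei, which carry the most Itgb3, it was at 138.3 and 182.5 CPM in WT-CD and 247.6 and 231.2 CPM in R403Q-EMPA, which did not pass (log2 fold change 0.59, SE 0.215, adjusted p 0.583). Whether these classes differ in their response was not tested.

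Itgb3 was also read in each endothelial-like cluster, again after the class-wide result was known. These clusters hold the same nuclei that gave the class-wide call, so their values are not separate support for it. How often other genes lie apart in this way was not counted. The R403Q-EMPA libraries lay above the WT-CD libraries in 5 of 6 clusters, of which 4 held 0 to 6 UMIs of it in each WT-CD library. In the cluster led by Mki67 this rested on 16 and 3 UMIs in R403Q-EMPA against 3 and 2 in WT-CD. The highest level was in the cluster led by Col13a1, at 150.9 and 164.2 CPM against 29.2 and 51.5 CPM. In the capillary cluster led by Car4, the carbonic anhydrase of heart capillaries, it was near 0 in both groups, at 2.15 and 1.196 CPM against 0.868 and 2.66 CPM, and these libraries overlapped. The cluster led by Nr5a2 held 35.0% of the endothelial-like nuclei of R403Q-EMPA replicate 1 and 13.9% of those of replicate 2, beside 5.60% and 8.70% in the WT-CD libraries and 12.3% and 13.0% with R403Q-CD, so that replicate 1 stood apart, and the part of this in the class-wide value was not tested. Itgav, the alpha chain Itgb3 pairs with outside platelets, was not called in any class.

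**Figure D3:**
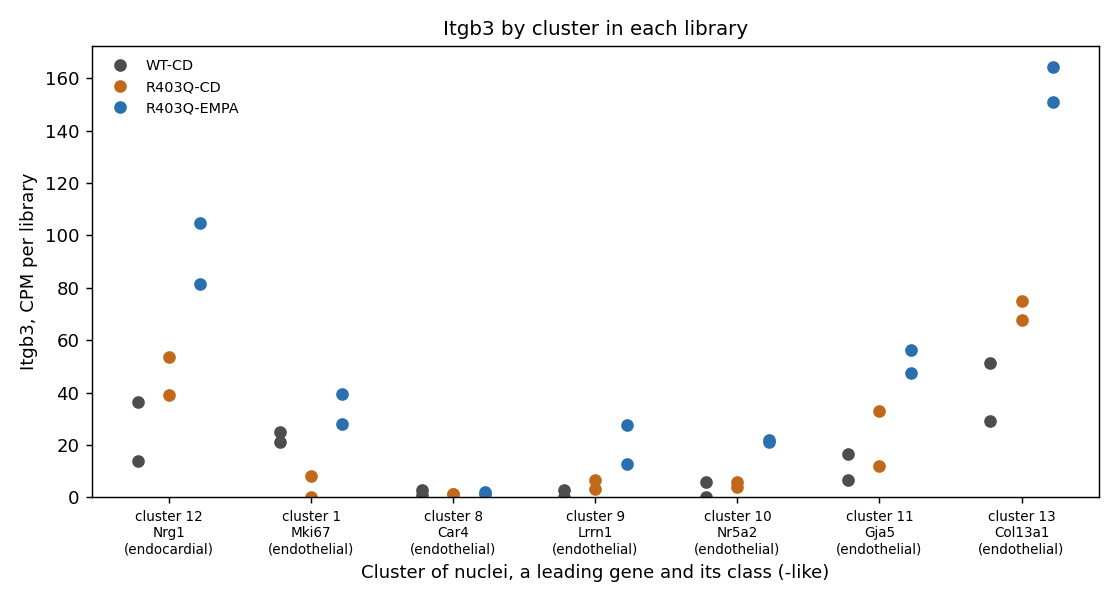
Itgb3 level in CPM in each library (points, coloured by group) for the endocardial-like cluster and the 6 endothelial-like clusters, named by a leading gene. R403Q-EMPA libraries lie above WT-CD libraries everywhere but in the Car4 cluster, and are highest in the Col13a1 cluster, at 150.9 and 164.2 CPM. The clusters hold the same nuclei that gave the class-wide calls.

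In fibroblast-like nuclei 0 of 28 subunits was called, beside 1.23% of genes, although 9 had an unadjusted p under 0.05 (32.1%, beside 14.3% of genes). Itga8, the receptor of nephronectin, was at 106.5 and 111.2 CPM in WT-CD and 55.0 and 80.1 CPM in R403Q-EMPA (log2 fold change -0.74, SE 0.183, adjusted p 0.104). Lamb3 was at 19.4 and 14.9 CPM in WT-CD and 11.1 and 8.77 CPM in R403Q-EMPA (adjusted p 0.104). DESeq2 called Itga8 here, with an adjusted p of 0.0304. Of the main fibroblast laminins, Lama2 was at 3406 and 3832 CPM in WT-CD and 3603 and 3793 CPM in R403Q-EMPA, which overlapped. Lamc1 was at 1890 and 2132 CPM and then at 1461 and 1559 CPM, which did not overlap and was not called. In the fibroblast-like cluster led by Ltbp2, Cilp and Thbs4, which held 32.4% and 7.19% of the class in R403Q-EMPA and 2.48% to 4.601% in the 4 other libraries, the means over the 6 libraries were 66.5 CPM for Itga8, 3.69 CPM for Lamb3 and 1095 CPM for Lamc1. Itga8 and Lamb3 were highest in the cluster led by Grm8, at 198.4 and 27.1 CPM. Lamc1 was highest in that led by Duox1, at 2167 CPM. The Grm8 cluster held 21.7% and 22.4% of the class in WT-CD, 20.5% and 17.9% with R403Q-CD and 6.63% and 4.78% with R403Q-EMPA. The part of the cluster shares in these values was not tested.

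In the 6 other classes 0 subunits were called. The smallest p belonged to Itgb3 (lymphatic endothelial-like), Itga8 (pericyte-like), Lama4 (smooth muscle-like), Itgb5 (myeloid-like), Lamc1 (lymphoid-like) and Lama2 (epicardial-like), with adjusted p from 0.146 to 0.708. Itgb5 in myeloid-like nuclei was at 170.9 and 132.3 CPM in WT-CD and 247.7 and 240.4 CPM in R403Q-EMPA. Lama4 in smooth muscle-like nuclei was at 118.6 and 91.6 CPM and then 272.5 and 218.2 CPM, on 17 and 14, then 57 and 18 UMIs.

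The 5 calls rested on few libraries. Without R403Q-EMPA replicate 1, 0 of the 5 were called, and a fit of only the WT-CD and R403Q-EMPA libraries also called 0. Without R403Q-EMPA replicate 2, these 5 were not called either, and other pairs were. Those were Itgb4 in endocardial-like, Lamb1 in endothelial-like, Itga8 in fibroblast-like, Lamc1 in lymphoid-like and Itga9 in myeloid-like nuclei. Over the fits that left 1 library out the adjusted p reached 0.174 for Itga5, 0.164 for Itgb6 and 0.238 for Lamb3. It reached 0.0587 for Itgb3 in endocardial-like and 0.289 in endothelial-like nuclei. The number of subunit pairs called also changed when a library of R403Q-CD or WT-CD was left out, and so did the share of all pairs called. The direction of all 5 was the same in each of the 13 alternative fits of each pair, and log2 fold changes for Itgb6 ran from -1.48 to -0.78, for Itgb3 in endocardial-like nuclei from 1.26 to 2.76 and for Itgb3 in endothelial-like nuclei from 1.34 to 2.42.

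**Figure D4:**
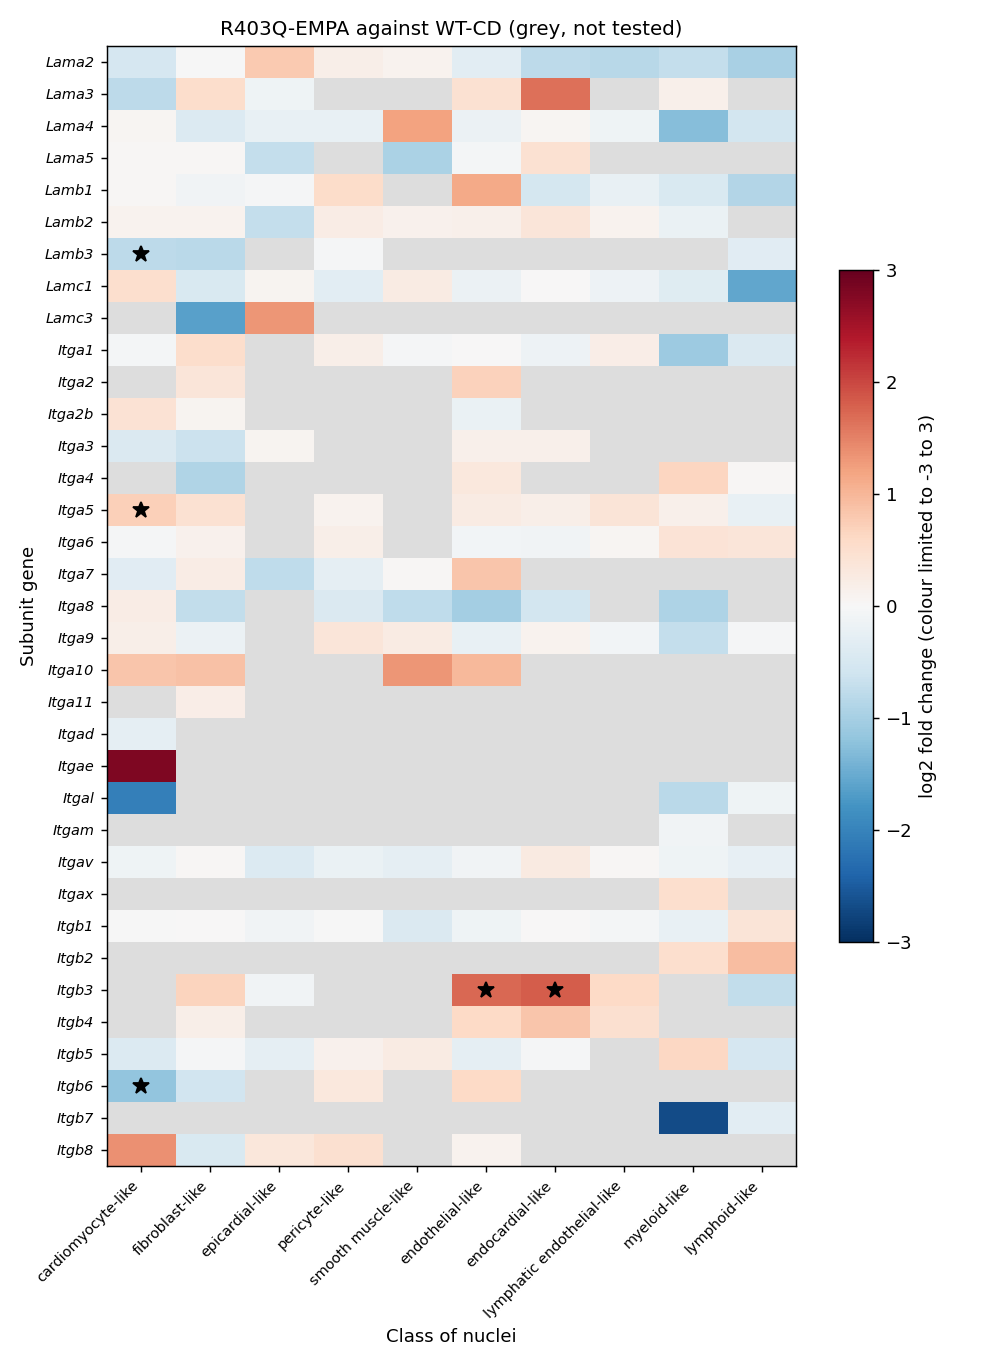
Fitted log2 fold change of R403Q-EMPA against WT-CD for 35 subunits (rows) in 10 classes (columns), red for higher and blue for lower in R403Q-EMPA, grey where the subunit was not tested. Stars stand on the 5 called pairs: Itga5, Itgb6 and Lamb3 in cardiomyocyte-like and Itgb3 in endothelial- and endocardial-like nuclei.

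R403Q-EMPA against R403Q-CD is the contrast for empagliflozin within mutant hearts, and it shares its libraries with the other comparisons. None of the 191 pairs passed, beside 0.325% of all gene and class pairs, and 34 had an unadjusted p under 0.05 (17.8%, beside 9.75% of all pairs). DESeq2 called 5 (2.62%, beside 0.84% of all pairs), which were Itga8 and Itgb8 in fibroblast-like nuclei, Itgb3 and Itgb4 in endothelial-like nuclei and Itgb6 in cardiomyocyte-like nuclei. By edgeR the smallest adjusted p values were those of Itgb8 in fibroblast-like nuclei and Itgb3 in endothelial-like nuclei.

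Itgb8 in fibroblast-like nuclei was at 188.1 and 170.4 CPM in R403Q-CD against 117.0 and 104.3 CPM in R403Q-EMPA, with WT-CD at 133.9 and 159.1 CPM (log2 fold change -0.74, SE 0.153, adjusted p 0.0910). Both treated libraries were below the 4 others. The summed Schwann markers in fibroblast-like nuclei were at 107.6 and 180.0 CPM in R403Q-EMPA and at 228.6 to 264.0 CPM in the 4 others. Their part in the Itgb8 value was not tested. The class had 0.338% of its genes called. Itgb3 in endothelial-like nuclei, with 0.242% of genes called, was higher by 1.43 on the log2 scale (SE 0.261, adjusted p 0.0911). Itgb3 in endocardial-like nuclei, with 0.851% of genes called, differed by 0.95 (SE 0.324, adjusted p 0.259). In cardiomyocyte-like nuclei, with 0.251% of genes called, the smallest p was that of Itgb8, on 6 and 6 UMIs in R403Q-CD against 44 and 19 in R403Q-EMPA (adjusted p 0.143), and Itgb6 differed by -0.89 (SE 0.226, adjusted p 0.146).

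Lamb1 in endothelial-like nuclei differed between the treated libraries. It was at 85.0 and 56.2 CPM in the WT-CD libraries, 83.8 and 73.8 CPM with R403Q-CD and 210.4 and 89.7 CPM with R403Q-EMPA, so replicate 1 stood far above the others. Against WT-CD it stood 1.14 higher on the log2 scale in edgeR (SE 0.326, adjusted p 0.184), while DESeq2 called it at an adjusted p of 0.0182, and edgeR did so without R403Q-EMPA replicate 2 (log2 fold change 1.58, adjusted p 0.0237). Itgb4 in the same nuclei was at 20.8 and 9.70 CPM in R403Q-EMPA, 4.70 and 5.97 CPM in R403Q-CD and 12.3 and 9.55 CPM in WT-CD. In the 6 other classes of R403Q-EMPA against R403Q-CD the smallest p belonged to Itgb4 (lymphatic endothelial-like), Lamb1 (pericyte-like), Lama4 (smooth muscle-like), Itga8 (myeloid-like), Itga6 (lymphoid-like) and Lamc3 (epicardial-like), with adjusted p from 0.204 to 0.991.

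A further 4 lists of genes that work with these subunits were read in the same fits, along with a list of fibroblast activation genes. Their calls stand beside 1.41% of all gene and class pairs called in R403Q-EMPA against WT-CD, 0.325% in R403Q-EMPA against R403Q-CD and 0.017% in R403Q-CD against WT-CD. Of 16 basement membrane partners of laminin, in 108 pairs of gene and class, 6 pairs rose and 2 fell in R403Q-EMPA against WT-CD, and 0 were called in the other comparisons. Col4a1 and Col4a2, the chains of the common collagen IV, rose in endocardial-like nuclei, where Col4a1 was at 175.7 and 133.4 CPM in WT-CD and 307.7 and 301.8 CPM in R403Q-EMPA (log2 fold change 0.95, SE 0.157, adjusted p 0.0104). Both also rose in pericyte-like nuclei, with Col4a1 at 562.4 and 445.6 CPM and then 977.0 and 752.5 CPM (log2 fold change 0.77, SE 0.156, adjusted p 0.0174). The 7 endothelial markers in pericyte-like nuclei summed to 117.3 and 128.1 CPM in WT-CD and 269.3 and 158.7 CPM in R403Q-EMPA, and the 7 smooth muscle markers to 220.9 and 257.9 CPM and then 371.0 and 440.2 CPM, and their part in these calls was not tested. Col18a1, the source of endostatin, rose in endothelial-like nuclei (log2 fold change 1.48, adjusted p 0.0482). Ntn4, a netrin that binds the gamma chain of laminin, rose in endocardial-like nuclei (log2 fold change 1.45, adjusted p 0.0259) and fell in cardiomyocyte-like nuclei (log2 fold change -1.41, adjusted p 0.0397). Col4a3 fell in fibroblast-like nuclei (log2 fold change -0.71, adjusted p 0.0399).

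Of 18 laminin receptors other than integrins and their complex, 1 pair rose and 1 fell of 145 in R403Q-EMPA against WT-CD. Sgce, a sarcoglycan, fell in cardiomyocyte-like nuclei (log2 fold change -0.92, adjusted p 0.0466). Dmd, which encodes dystrophin, rose in pericyte-like nuclei, from 343.6 and 395.0 CPM to 668.6 and 521.3 CPM (log2 fold change 0.67, adjusted p 0.0422). The 8 cardiomyocyte markers, all detected in those nuclei, summed to 1329 and 1185 CPM in the WT-CD libraries, 2021 and 1897 CPM with R403Q-CD and 2278 and 2173 CPM with R403Q-EMPA, and their part in the result was not tested. In R403Q-EMPA against R403Q-CD the 1 call was Dmd in lymphoid-like nuclei (log2 fold change 5.31, adjusted p 0.00179), where the same markers summed to 4376 and 16140 CPM in R403Q-EMPA, 2018 and 2566 CPM in R403Q-CD and 3547 and 4067 CPM in WT-CD. Their part in it was not tested.

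Of 25 genes listed as integrin adaptors, in 194 pairs, 2 rose and 1 fell in R403Q-EMPA against WT-CD and 1 rose in R403Q-CD against WT-CD. Ptk2b, the kinase Pyk2 that acts below integrins, rose in cardiomyocyte-like nuclei from 2.00 and 2.42 CPM to 14.0 and 8.66 CPM (log2 fold change 2.28, SE 0.320, adjusted p 0.00719). Actn1, the alpha-actinin of adhesions, rose in endocardial-like nuclei (log2 fold change 1.18, adjusted p 0.0346), and Tns3, a tensin, fell there (log2 fold change -0.97, adjusted p 0.0204). The call in R403Q-CD against WT-CD was Itgbl1, which stood in the list but encodes a secreted protein with integrin-like repeats and no adaptor, in epicardial-like nuclei (51.8 and 42.2 CPM in WT-CD, 217.0 and 182.8 CPM in R403Q-CD, log2 fold change 2.02, adjusted p 0.0355).

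Of 22 integrin ligands other than laminin, in 128 pairs, 5 rose and 2 fell in R403Q-EMPA against WT-CD, and 1 rose in R403Q-EMPA against R403Q-CD. Of the 5, 2 were Col4a1, which this list shares with the partners of laminin. Thbs1, a thrombospondin that Itgb3 integrins bind, rose in endothelial-like nuclei in both comparisons, from 1.69 and 1.21 CPM in WT-CD against 1.32 and 1.81 CPM in R403Q-CD to 11.1 and 8.31 CPM in R403Q-EMPA (log2 fold change 2.81 against WT-CD, adjusted p 0.0215, and 2.61 against R403Q-CD, adjusted p 0.0339). Spp1, which encodes osteopontin, was at 0 in both WT-CD libraries and at 22.8 and 3.99 CPM in R403Q-EMPA in fibroblast-like nuclei (adjusted p 0.0371). Fn1, fibronectin, was at 3.24 and 0.0 CPM in WT-CD and 55.3 and 183.2 CPM in R403Q-EMPA in epicardial-like nuclei (adjusted p 0.0272). The summed fibroblast markers there were at 6392 CPM in R403Q-EMPA replicate 2, the library with 183.2 CPM of Fn1, and at 2150 to 3061 CPM in the 5 others, and their part in it was not tested. Ltbp1, the latent TGF-beta binding protein, fell in cardiomyocyte-like nuclei from 189.0 and 242.0 CPM to 86.4 and 96.6 CPM (log2 fold change -1.32, SE 0.205, adjusted p 0.0103), and Icam1, the ligand of leukocyte integrins, fell in endocardial-like nuclei (log2 fold change -0.80, adjusted p 0.0346).

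Of the 9 fibroblast activation genes, in 44 pairs, 3 pairs rose in R403Q-EMPA against WT-CD, and 3 rose and 1 fell against R403Q-CD. Summed over the list, the level in fibroblast-like nuclei was 3271 CPM in R403Q-EMPA replicate 1 but 1693 CPM in replicate 2, which was below each of the 4 other libraries (1829 to 2103 CPM). The part of the cluster led by Ltbp2, Cilp and Thbs4, with its shares given above, was not tested for these calls. Comp, a cartilage matrix protein, was at 2.78 and 0.902 CPM in the WT-CD libraries, 0.323 and 1.49 CPM with R403Q-CD and 18.1 and 18.9 CPM with R403Q-EMPA in fibroblast-like nuclei (adjusted p 0.0205 and 0.0295). Thbs4 was at 0.717 and 0.361 CPM, then 0.754 and 2.98 CPM, then 82.1 and 17.5 CPM (adjusted p 0.0166 and 0.0483). The other rise over WT-CD was the Fn1 value in epicardial-like nuclei given above. Against R403Q-CD, Ltbp2 was at 0 in both R403Q-CD libraries and 7.89 and 10.7 CPM in R403Q-EMPA in endocardial-like nuclei (adjusted p 0.0424), and Col8a1 fell in pericyte-like nuclei (log2 fold change -0.86, adjusted p 0.0438).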

How the data were processed

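Each preparation used 50 mg of frozen left ventricular tissue, and RNA of single nuclei was read with the 10x Genomics method. The authors deposited raw UMI counts per gene and barcode for each of the 6 libraries, made with Cell Ranger 8.0.1 on GRCm39 according to the submitters' processing notes. Whether intronic reads were counted is not given in the sources used here. Barcodes with at least 500 UMIs, 300 genes and at most 5% mitochondrial UMIs were kept, and doublets called by Scrublet (scanpy 1.11.5) were removed, 3.68% to 6.45% of each library. Each nucleus was scaled to 10000 UMIs before a log transform, and 2000 variable genes gave 30 principal components, and a 15-neighbour graph was clustered by the Leiden method at resolution 1. A cluster took a class name where at least 3 markers of that class were 2 times over the other clusters and seen in 10% of its nuclei. Classes with at least 20 nuclei in every library were summed per library and tested with edgeR 4.0.16 (TMM, filterByExpr, quasi-likelihood, all 3 groups in the fit). DESeq2 1.42.0 was an alternative. With 2 libraries a side an exact permutation test cannot go below a p of 0.333 and was not used. The test was checked on simulated counts, drawn with the same spread for every gene and group. The real libraries need not share that spread, so the check does not give the error rate in these data. The subunits were taken by symbol, but this family, the marker lists and the partner lists were chosen with earlier results of these data known. Of the 37 subunits, 1 is not reported here, and the counts of subunits leave it out, while it stayed in the fits over all genes. Any other subunit could be named, and every called one was. Where a class had none, that of smallest p was named. Of the other lists, at most 3 called genes per list, class and comparison were named. Replicate numbers were given in accession order and pair nothing. The diet period in the labels is longer than the labelled ages at the start and at sampling allow, while the methods of the study place its RNA sequencing of hearts after 2 weeks of treatment, at the labelled age. The largest number of barcodes shared by 2 libraries was 30, or 0.378% of the smaller.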

Additional observations from a re-analysis of the deposited data

Results flagged for a closer look

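Itgb3 in R403Q-EMPA lay on opposite sides of WT-CD in different classes. It lay above WT-CD in both R403Q-EMPA libraries of endothelial-like and of endocardial-like nuclei but below it in lymphoid-like nuclei. There the log2 fold change was -0.73, at 49.2 and 30.9 CPM on 8 and 4 UMIs, against 57.8 and 77.6 CPM on 11 and 15 UMIs. In this comparison 0 of the 17 subunits tested in lymphoid-like nuclei were called. The lymphoid-like cluster led by Pax5 held 39.1% and 44.3% of the class in WT-CD and 24.2% and 23.6% in R403Q-EMPA. Its part in the Itgb3 value was not tested. The differences between the classes were not tested.

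The 61 Schwann-like nuclei, which entered no comparison, held 3 subunits at a higher mean level than any compared class. Itga2 had 44 UMIs there, at 240.0 ± 154 CPM over the 6 libraries, against 24.8 CPM in lymphoid-like nuclei. Itgb8 had 54 UMIs, at 270.7 ± 125 CPM against 148.2 CPM in epicardial-like nuclei. Itgb4 had 26 UMIs, at 120.5 ± 65.1 CPM against 72.6 CPM in endocardial-like nuclei. A library held as few as 3 of these nuclei.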

How the results depend on the processing

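No paired analysis was possible because nothing in the labels links a library of 1 group to a library of another. For R403Q-CD against WT-CD, testing every gene without a filter on low counts raised the called pairs from 0 to 3 (beside 0.383% of all pairs). These were Itga6, Lama2 and Lamc1 in lymphoid-like nuclei. Lamc1 there was also called without R403Q-EMPA replicate 1 or 2 (log2 fold change -1.78 and -1.80). The summed fibroblast markers in lymphoid-like nuclei were at 1723 and 1998 CPM in WT-CD. They were at 587.6 and 931.7 CPM in R403Q-CD and 283.1 and 848.7 CPM in R403Q-EMPA, and their part was not tested. For R403Q-EMPA against R403Q-CD, DESeq2 called 5 (beside 0.84% of all pairs), the unfiltered test 17 (1.64%) and a fit of only the 2 groups compared 4 (1.15%), in place of 0 (0.325%), and leaving out 1 library gave 0 to 5 (0.0341% to 1.23%). For R403Q-EMPA against WT-CD the unfiltered test called 20 (2.53%) and the fit of only 2 groups 0 (0.612%) in place of 5 (1.41%), and leaving out 1 library gave 0 to 10 (0.316% to 2.95%). Where this left a group with 1 library, that library was assumed to vary like the others. RLE scaling, library totals, no mitochondrial filter and clustering without the subunits gave counts of called subunit pairs within 1.5 times of the main value in each comparison. This did not hold for all genes. For R403Q-CD against WT-CD, dropping the mitochondrial filter raised the share of all pairs that passed from 0.017% to 0.607%. Doublets of R403Q-EMPA replicate 1 were then set by a fallback rule, which removed 10.055% of that library in place of 3.676%. No called subunit pair changed direction in any fit. The called pairs passed in 8 of 13 alternatives for Itga5, 9 for Itgb6, 6 for Lamb3, 10 for Itgb3 in endocardial-like and 7 in endothelial-like nuclei. The number of marking subunits ran from 12 (Schwann-like nuclei counted as a class) and 13 (a 3-fold limit, which dropped Itga6, Itgb3 and Lama5) to 19 (a 1.5-fold limit, which added Itga3, Itga9 and Lama2). Clustering without the subunits gave the same class to 99.876% of nuclei. The cause of these differences was not tested. The small classes held few UMIs, such as smooth muscle-like nuclei with 82497 to 209205 per library, and the part of depth in their results was not tested.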
